A study of Mus musculus with 23 samples.

Results

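The genes described here encode fibroblast growth factors (FGFs), bone morphogenetic proteins (BMPs) and their receptors. They were taken as every array probe whose gene symbol is Fgf, Fgfr1 to Fgfr4, Bmp, Bmpr1a, Bmpr1b or Bmpr2, with a number after Fgf and Bmp. The symbols picked out 50 of the 36227 probes, which name 39 genes. The 50 probes comprise 16 probes of 11 genes named Bmp, 3 probes of 3 BMP receptors, 28 probes of 22 genes named Fgf and 3 probes of 3 FGF receptors. Of the 39 genes, 28 have 1 probe and 11 have 2.

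Most FGFs are secreted and bind receptor tyrosine kinases, which signal through the MAP kinase pathway and switch on feedback inhibitors of the Sprouty and Spred families. BMPs are secreted dimers that bind pairs of serine/threonine kinase receptors, which phosphorylate SMAD proteins, and extracellular antagonists such as noggin and follistatin hold them back. In the early mouse embryo both families pattern the neural tube, the limb and heart fields and the tail bud. Some genes named by these symbols work otherwise: Bmp1 encodes a metalloprotease that cleaves procollagen and the BMP antagonist chordin, and Fgf11 to Fgf14 encode intracellular proteins that bind sodium channels.

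Transcripts were measured in RNA of whole mouse embryos from crosses between p53 heterozygotes, collected at day 8.5. The embryos had been held for 10 minutes in water at 38 °C, called control here, or at 43 °C, called heat. p53 is a transcription factor that responds to cellular stress, and the study asked how expression differs between p53 +/+ (wildtype), +/- (heterozygous) and -/- (null) embryos. Each array carries 1 pool of 3 to 7 embryos that share genotype and bath; 5 of the 6 groups hold 4 pools, lettered A to D, and null heat holds 3, lettered A to C. The sources used here name neither the p53 allele, the strain nor the litters behind a pool, so the p-values measure only the spread between these pools. Because a pool is whole embryos, fewer cells that express a gene and less RNA per cell cannot be told apart.

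On these 1-colour CodeLink arrays a value is a fluorescence intensity, printed here after quantile normalization, in array units. Levels of different probes are not comparable. Each of the 12 control columns lacks 7576 to 11666 values and the 11 heat columns have no empty cell, so bath and array processing cannot be told apart. Of the cells of the FGF and BMP probes, 180 of 600 are without a value in the controls and 3 of 550 in the heat pools. The transcript of p53 itself was not analysed here. Of the marker lists for embryonic tissues, all 8 yolk sac genes, all 7 somite genes, 6 of 7 neural tube genes, 6 of 7 endothelial genes and 5 of 7 heart muscle genes were tested. A tested gene only met the rules on values and signal given below, which dim probes can also meet. These counts therefore do not show which tissues the pools hold. Of the 7 trophoblast and decidua genes only 4 are named by an array probe, and 2 were tested. Prl3d1, Prl2c2, Prl8a2, Tpbpa and Gcm1 were not tested, some of them for want of a probe.

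Bmp4 and Fgf5 are the 2 genes that passed the test both with heat in null pools and between null and wildtype control pools, in opposite directions, and whose RefSeq promoter windows (build GRCm38.p6) were at hand. The 250 bases before the start of each gene are shown with the motifs searched in capitals. Bmp4 lies on the minus strand at chr14:46390670-46390919 and Fgf5 on the plus strand at chr5:98253934-98254183.
Bmp4: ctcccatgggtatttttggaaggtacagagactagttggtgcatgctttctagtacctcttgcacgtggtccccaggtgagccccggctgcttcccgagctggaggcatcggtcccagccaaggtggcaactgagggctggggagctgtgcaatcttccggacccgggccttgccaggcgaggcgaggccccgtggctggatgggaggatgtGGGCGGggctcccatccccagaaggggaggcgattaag
Fgf5: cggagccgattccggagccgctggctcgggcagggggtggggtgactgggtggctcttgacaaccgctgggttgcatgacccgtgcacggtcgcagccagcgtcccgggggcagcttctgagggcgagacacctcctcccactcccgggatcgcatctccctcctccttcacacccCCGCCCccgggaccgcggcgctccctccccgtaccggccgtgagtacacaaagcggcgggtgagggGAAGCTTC

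In the Bmp4 window the capitals mark a GC box (GGGCGG) at positions -38 to -33. In the Fgf5 window they mark a GC box on the other strand at -74 to -69 and the letters GAANNTTC, the core spacing of a heat shock element, at -8 to -1. A window was at hand for 28 of the 39 genes. On either strand, GGGCGG was found in windows of 19 of the 28 genes, against 32.7% of 32851 promoter windows of the same length. GAANNTTC was found for Fgf3, Fgf5 and Fgf12 and in 6.69% of all windows. TTCNNGAA, which can overlap GAANNTTC, was found for 0 of the 28 genes and in 7.17% of all windows. The repeat unit of the p53 site was found for Bmpr1b and Bmpr2 and in 7.13% of all windows. Some genes have several windows, so a share over genes and a share over windows are not the same measure.

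Of the 50 probes, 30 probes of 27 genes had enough values and signal to be tested. The tested probes are 12 of the BMP ligand probes, 3 of the BMP receptors, 13 of the FGF ligands and 2 of the FGF receptors. A probe needed 3 values in each group and had to lie above the array's 40th percentile in 3 or more pools. That percentile was 1.14 to 1.61 on control arrays and 0.66 to 0.69 on heat arrays, whose dim spots kept their values. Thus a dim probe could pass through the heat arrays alone, as Bmp3 did, which exceeded it on 3 heat arrays and on 0 control arrays. The tested probes of Bmp15, Bmp8a, Bmp8b, Bmpr2, Fgf10, Fgf16 and Fgf23 also exceeded that percentile on 0 control arrays, so their small changes carry the same limit.

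Heat changed few of these probes. In wildtype pools 0 of 30 probes passed limma's test at an adjusted p of 0.05, where 3.08% of all 21979 tested probes did, and 5 members had an unadjusted p under 0.05. In heterozygous pools 0 of 30 passed, against 2.31% of all probes, and 6 had an unadjusted p under 0.05. In null pools Bmp4 and a Bmp2 probe rose and Fgf5 fell, which is 10% of the members against 5.53% of all probes (2.88% up and 2.64% down). For the mean of the 3 genotypes 5 of 30 passed, against 12.2% of all probes (5.18% up and 6.99% down). Bmp4, the same Bmp2 probe and Fgf15 rose, and Bmp3 and Fgf13 fell. The median log2 change of the members was 0.01, -0.005, -0.05 and -0.003 in these 4 comparisons, beside medians over all probes of 0.01, 0.02, -0.03 and 0.001. The members' shares lie near those of the whole table, and their medians are close to 0.

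Between null and wildtype pools in the control bath, Fgf5 was higher and Bmp4 and Fgfr3 were lower in null pools, which is 10% of the members against 8.36% of all probes (3.68% higher and 4.69% lower). In the other 5 comparisons of genotypes within a bath, and in the 3 differences between heat responses, 0 of 30 members passed. The share of all probes called in those 8 comparisons was 0.00455% for heterozygous against wildtype controls, 0.0455% for null against heterozygous controls, and 0.56%, 0.141% and 0.00455% for null against wildtype, heterozygous against wildtype and null against heterozygous heat pools. It was 1.01% for the null minus wildtype difference in heat response, 0% for heterozygous minus wildtype and 0.0227% for null minus heterozygous. Members with an unadjusted p under 0.05 numbered 0, 4, 3, 2, 4, 6, 0 and 4 in those comparisons, in that order, with the 3 response differences last. The comparisons of heat within null pools and of null against wildtype controls share the 4 null control pools, so a low or high value there enters both.

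**Figure D1:**
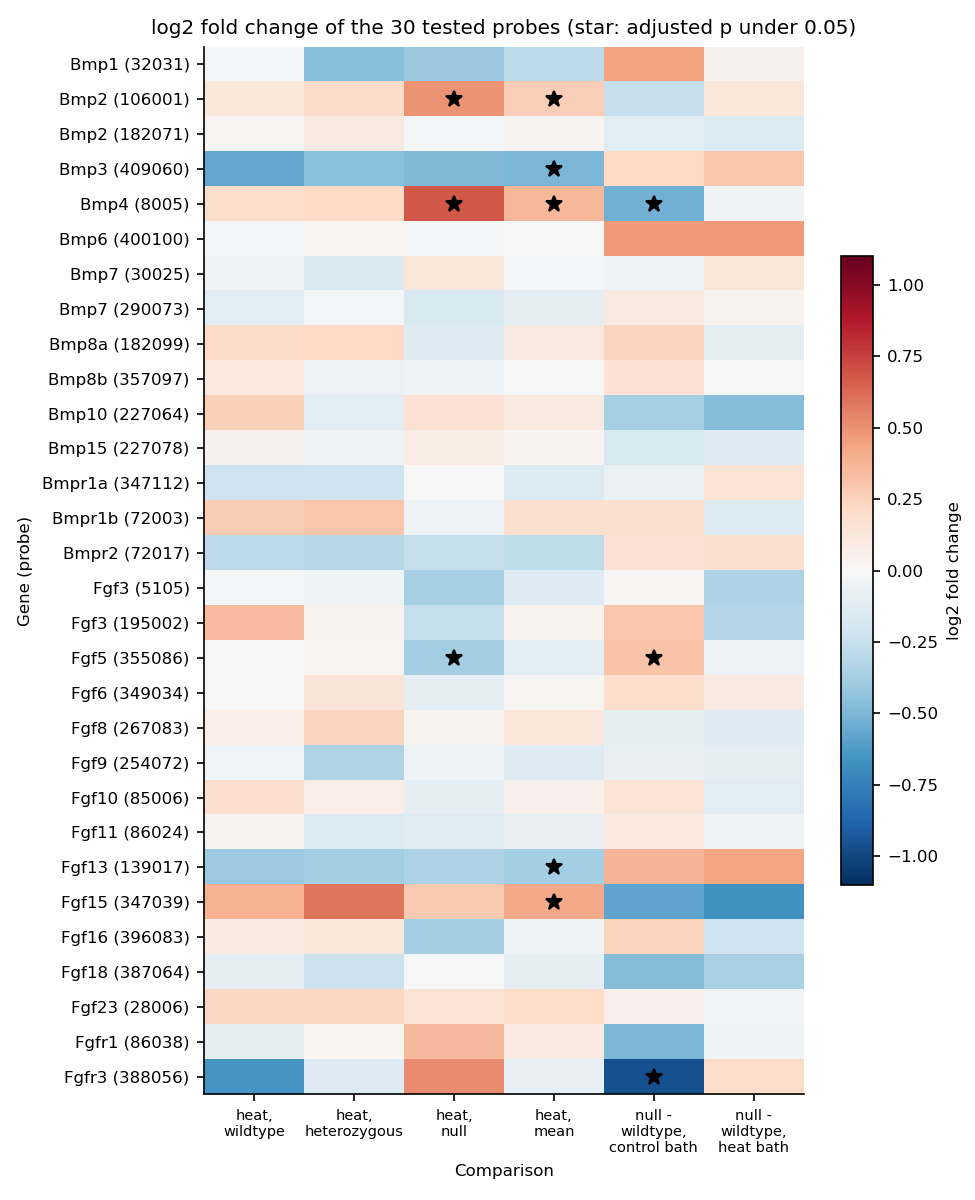
Colour gives the log2 fold change of each of the 30 tested probes (vertical axis, gene and probe number) in 6 comparisons (horizontal axis), and a star marks a limma adjusted p under 0.05. The stars are few: 3 for heat in null pools, 5 for the mean heat response and 3 for null against wildtype controls, with none in wildtype or heterozygous pools alone.

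Among the ligands, Bmp4, which patterns ventral mesoderm and the dorsal neural tube, gave the change that held most widely. Its intensity was 10.2, 11.05, 9.76 and 11.3 in wildtype controls, 10.1, 10.3, 8.86 and 9.02 in heterozygous controls and 9.47, 6.98, 7.15 and 6.12 in null controls. In the heat pools it was 12.7, 9.89, 14.8 and 11.5 in wildtype, 11.6, 12.3, 11.6 and 9.29 in heterozygous and 13.1, 11.3 and 11.03 in null. The null groups do not overlap: each null heat pool exceeded each null control, whereas heat and control pools overlapped in wildtype and heterozygous embryos. Bmp4 rose with heat in null pools by 0.69 ± 0.14 (log2, SE), which is 1.61-fold (limma adjusted p = 0.00863). The corresponding values were 0.19 ± 0.13 (adjusted p = 0.457) in wildtype and 0.22 ± 0.13 (adjusted p = 0.427) in heterozygous pools. For the mean of the genotypes it rose by 0.37 ± 0.08 (limma adjusted p = 0.00246).

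The null heat pools sit at the level of the other heat pools, with a null minus wildtype difference of -0.03 ± 0.14 in the heat bath (adjusted p = 0.908). In the control bath every null pool lay below every wildtype pool, and the difference was -0.53 ± 0.13 (limma adjusted p = 0.0208), or 0.69 of the wildtype level. That full separation depends on the normalization. In the values as deposited null control A, at 9.71, lay above wildtype control C, at 9.60. The difference between the null and wildtype heat responses, 0.49 ± 0.19, did not pass (adjusted p = 0.155), so the response was not shown to depend on genotype. The call between controls was lost without wildtype control B or D or null control B, C or D (adjusted p from 0.0528 to 0.0757).

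Some marker genes were also called in the 2 comparisons that involve the null controls, and their part in the change of Bmp4 was not tested. Of the marker lists, only Cldn5 and Epor were called in both comparisons in the direction of Bmp4. Between null and wildtype controls 8.5% of all genes passed. There 3 of the 6 tested endothelial genes were lower, namely Pecam1 (-0.88), Cldn5 (-1.31) and Cd34 (-1.17), as were 2 of the 3 tested red cell genes, Klf1 (-1.104) and Epor (-0.92). Of the 6 tested neural tube genes, Otx2 was lower (-0.95) and Pax6 higher (0.49), and 0 of the 5 heart muscle and 0 of the 7 somite genes passed. With heat in null pools 1 of the 6 endothelial genes, Cldn5 (1.04), and 1 of the 3 red cell genes, Epor (1.07), rose, where 6.34% of all genes passed. The somite gene Tbx6 fell (-0.42) in that comparison, and the median change of the endothelial list was 0.03. The summed intensity of the 5 endothelial genes with a value on every array was 39.2 to 45.5 in wildtype controls, 31.3 to 42.9 in null controls and 38.0 to 40.9 in null heat pools. For the 2 such red cell genes the sum was 108 to 175, 108 to 155 and 130 to 134 in those groups. Only 4 of the 7 red cell genes are named by an array probe, and Hbb-bh1, Hba-x and Hba-a1 were among those not tested. The sum of the 8 yolk sac genes was 183 to 258, 119 to 214 and 169 to 243. None of the 8 yolk sac genes passed in either comparison.

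Bmp2, needed for amnion, heart and neural crest development, has 2 tested probes, and they differ in their calls. The platform lists a RefSeq transcript for probe 182071, which gave no call, and another kind of sequence record for probe 106001. Probe 106001 read 8.26, 10.3, 8.14 and 8.98 in wildtype controls, 8.19, 10.0, 7.68 and 7.69 in heterozygous controls and 7.68, 6.85, 7.56 and 7.74 in null controls. On the heat arrays it read 10.9, 10.0, 8.67 and 9.005 in wildtype, 8.52, 10.3, 10.3 and 9.52 in heterozygous and 9.76, 11.5 and 10.3 in null. Only in the null embryos do heat and control pools stand apart without overlap. This probe rose by 0.50 ± 0.11 in null pools (limma adjusted p = 0.0158) and by 0.27 ± 0.06 for the mean of the genotypes (limma adjusted p = 0.00467). The null call was lost without null control B (0.46, adjusted p = 0.0622) or null heat B (0.43, adjusted p = 0.0968). The mean response was below the threshold in the values as deposited, without normalization between arrays (0.20, adjusted p = 0.115).

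Bmp2 probe 182071 read 2.80, 3.07, 3.23 and 3.35 in wildtype controls, 2.95, 2.76, 3.199 and 3.24 in heterozygous controls and 3.11, 2.80, 2.67 and 2.93 in null controls. On the heat arrays it read 3.16, 2.34, 3.62 and 3.64 in wildtype, 3.00, 3.60, 3.33 and 3.11 in heterozygous and 2.51, 2.74 and 3.32 in null. Heat and control pools overlap in each genotype. Its changes were -0.02 ± 0.13 in null pools (adjusted p = 0.944) and 0.03 ± 0.07 for the mean (adjusted p = 0.824).

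Bmp3, an atypical BMP known as an antagonist of other BMPs, fell with heat. Probe 409060 read 0.770, 0.798, 0.743 and 0.617 in wildtype controls, 0.855, 0.530, 0.911 and 0.710 in heterozygous controls and 0.732, 0.942, 0.841 and 0.883 in null controls. After heat it read 0.439, 0.462, 0.514 and 0.557 in wildtype, 0.501, 0.522, 0.448 and 0.694 in heterozygous and 0.439, 0.692 and 0.728 in null pools. Each wildtype and null heat pool lay below each control of its genotype, and the heterozygous pools overlapped. The mean response was -0.51 ± 0.11 (limma adjusted p = 0.00248). The genotypes gave -0.57, -0.46 and -0.48, none of which passed alone (adjusted p = 0.0822, 0.188 and 0.12). The probe is dim: all 12 of its control values lie below the 40th percentile of their arrays. The other Bmp3 probe, 277084, had too few values to be tested. It read 0.228 on 1 control array and 0.0921 to 0.343 on 9 heat arrays. Of the 3969 tested probes with a mean level from 0.5 to 1, 3.17% fell and 4.03% rose for the mean response, and their median change was 0.02.

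The other BMP ligand probes gave no call. Bmp7, which acts in kidney, eye and heart formation, read 18.04 to 27.2 with probe 30025 and 3.46 to 5.002 with probe 290073 over all pools. Bmp1 changed by -0.47 ± 0.19 in heterozygous pools (adjusted p = 0.212) and by -0.30 ± 0.11 for the mean (adjusted p = 0.0868). Bmp6 read 1.29 to 3.87, and its mean response had a standard error of 0.17 around 0. Bmp10, a ligand of the developing heart, read 0.82 to 1.86, with a mean response of 0.10 ± 0.11. Bmp15, an oocyte factor, and Bmp8a and Bmp8b, near-identical copies whose probes may share transcripts, stayed between 0.456 and 1.09. Their mean responses were 0.03 ± 0.10, 0.10 ± 0.11 and 0.00 ± 0.08.

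None of the 3 BMP receptor probes passed in any comparison. Bmpr1b, a type I receptor, read 4.46 to 7.11 in the controls and 5.16 to 7.31 after heat. Its response was 0.28 ± 0.12 in wildtype, 0.31 ± 0.12 in heterozygous and -0.05 ± 0.13 in null pools (adjusted p = 0.23, 0.206 and 0.818). Bmpr1a, the other type I receptor measured, changed by -0.15 ± 0.12 for the mean (adjusted p = 0.505). Bmpr2, the type II partner, was lower by -0.28 ± 0.12 (adjusted p = 0.131), with values from 0.734 to 0.982 in controls and 0.389 to 0.947 after heat.

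**Figure D2:**
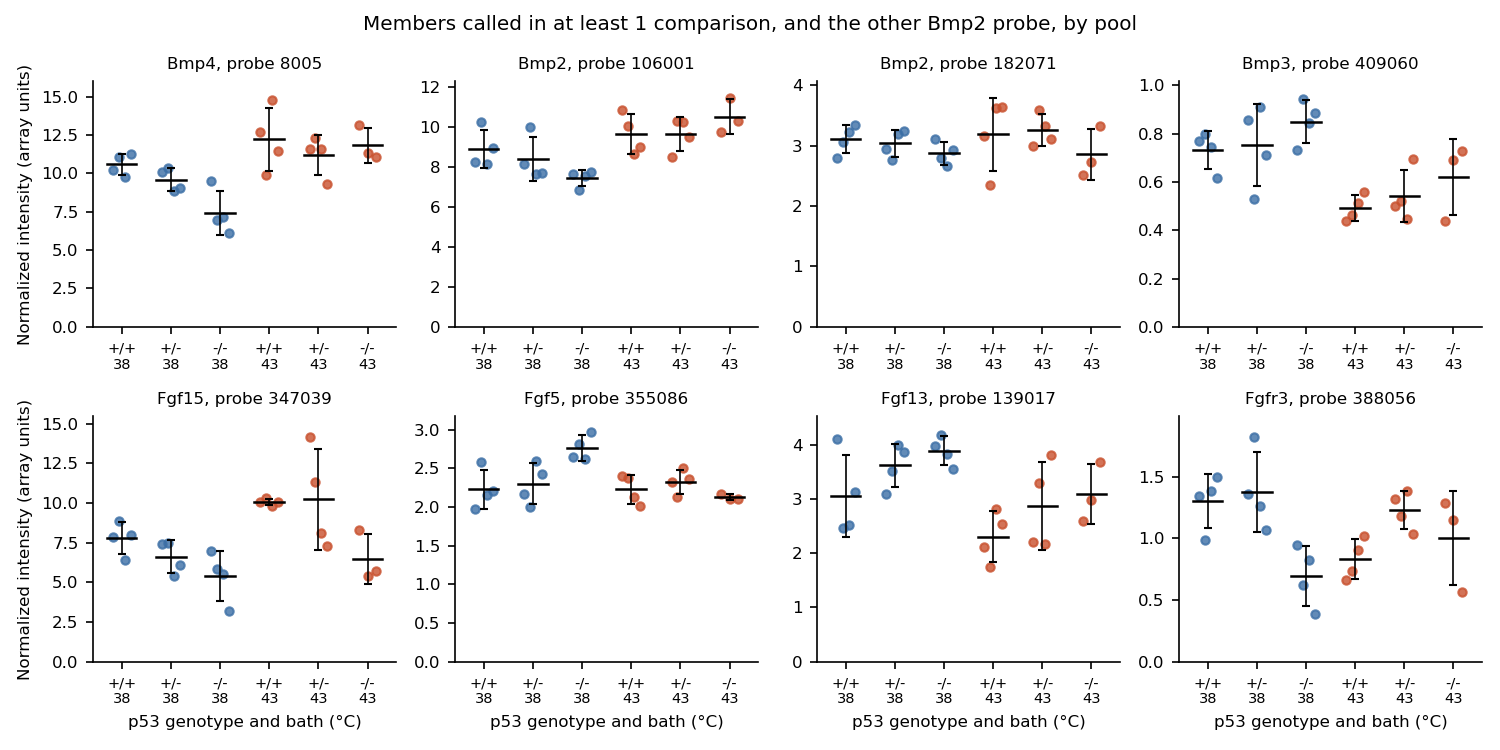
Normalized intensity (vertical axis, array units, from 0) of the 7 called probes and the other tested Bmp2 probe in each pool, by p53 genotype and bath temperature; points are pools, horizontal lines the group means and bars the SD over 4 pools (3 for null at 43 °C). In the Bmp4 panel the null controls sit at 6.12 to 9.47, below the null heat pools at 11.03 to 13.1, while the second Bmp2 probe stays between 2.34 and 3.64 in all groups.

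Among the FGF ligands, Fgf15, an FGF of the embryonic neural tube that acts as a gut hormone in the adult, rose with heat for the mean of the genotypes. It read 7.88, 8.89, 6.40 and 8.01 in wildtype controls, 7.45, 7.51, 5.39 and 6.08 in heterozygous controls and 6.97, 5.84, 5.55 and 3.22 in null controls. After heat it read 10.1, 10.3, 9.84 and 10.1 in wildtype, 14.2, 11.3, 8.10 and 7.27 in heterozygous and 8.29, 5.38 and 5.73 in null pools. The 4 wildtype heat pools lie close together above all wildtype controls, while the heterozygous heat pools spread widely and the null pools overlap. The separation in wildtype pools depends on the normalization. In the values as deposited wildtype heat C, at 8.20, lay below wildtype control A, at 8.50. The mean response was 0.42 ± 0.13 (limma adjusted p = 0.0296), made of 0.38 ± 0.21, 0.59 ± 0.21 and 0.29 ± 0.23 in wildtype, heterozygous and null pools. Null pools read lower than wildtype pools in both baths, by -0.58 ± 0.21 in the control bath and -0.67 ± 0.23 in the heat bath, neither past the threshold (adjusted p = 0.088 and 0.141). The mean response was no longer called without wildtype control C, heterozygous control C or D, heterozygous heat A or B or null heat A (adjusted p from 0.05 to 0.0812).

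Fgf13, an intracellular FGF homologous factor of neurons, fell with heat for the mean of the genotypes. It read 4.11, 2.47, 2.52 and 3.12 in wildtype controls, 3.09, 3.52, 3.996 and 3.86 in heterozygous controls and 3.98, 4.19, 3.82 and 3.56 in null controls. After heat it read 2.11, 1.75, 2.82 and 2.55 in wildtype, 2.21, 3.29, 2.17 and 3.81 in heterozygous and 2.60, 2.99 and 3.69 in null pools. Heat and control pools overlap in each genotype, and the 3 responses are of like size, -0.40, -0.37 and -0.34. The mean was -0.37 ± 0.11 (limma adjusted p = 0.0312). That call was lost when any of 11 of the 23 pools was left out: wildtype control A or D, heterozygous control C or D, null control B, wildtype heat A or B, heterozygous heat A or C, or null heat A or B (adjusted p from 0.0506 to 0.0771). It was also lost without the 4 arrays of lowest top value (-0.36, adjusted p = 0.0576).

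Fgf5, a ligand expressed in the epiblast and later a brake on hair growth, moved opposite to Bmp4. Probe 355086 read 1.97, 2.58, 2.16 and 2.21 in wildtype controls, 2.17, 1.998, 2.60 and 2.43 in heterozygous controls and 2.65, 2.82, 2.62 and 2.97 in null controls. After heat it read 2.40, 2.37, 2.13 and 2.02 in wildtype, 2.32, 2.13, 2.51 and 2.36 in heterozygous and 2.17, 2.11 and 2.11 in null pools. The null controls lie above all wildtype controls and above all null heat pools. It fell by 0.38 ± 0.11 with heat in null pools (limma adjusted p = 0.0426) and was higher in null than in wildtype controls by 0.32 ± 0.10 (limma adjusted p = 0.0495). Both calls lie close to the threshold. Leaving out any of the 7 null pools ended the heat call (adjusted p from 0.0524 to 0.14). The call between controls was lost without wildtype control A, C or D or any null control (adjusted p from 0.057 to 0.143). The other Fgf5 probe, 307010, had too few values to be tested. It read 0.363 to 0.573 on the 4 control arrays with a value and 0.274 to 0.517 on the 11 heat arrays.

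Fgf8, which organises the midbrain boundary and the tail bud, is 1 of the 9 FGF ligand genes whose tested probes were not called. It read 13.4 to 17.3 in the controls and 14.0 to 20.2 after heat, with a response of 0.25 ± 0.09 in heterozygous pools (adjusted p = 0.168) and 0.12 ± 0.05 for the mean (adjusted p = 0.181). Fgf3, which is needed for the inner ear and tail, is the FGF ligand with 2 tested probes. Fgf18, a bone and lung ligand, read 2.66 to 6.71 over all pools and changed by -0.11 ± 0.12 for the mean. Fgf9, Fgf10 and Fgf16, ligands of the limb, lung and heart, changed by -0.14 ± 0.09, 0.05 ± 0.09 and -0.05 ± 0.08. Fgf6, Fgf11 and Fgf23 changed by 0.01 ± 0.08, -0.08 ± 0.08 and 0.20 ± 0.08 (adjusted p = 0.935, 0.541 and 0.113).

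Fgf3, Fgf4 and Fgf15 are neighbouring genes on chromosome 7, Fgf6 and Fgf23 are neighbours on chromosome 6, and 1 protein-coding gene, Cfap299, lies between Fgf5 and Bmp3 on chromosome 5. These neighbours gave no shared call: Fgf15 rose for the mean response while Fgf3 gave -0.14 ± 0.12 and 0.04 ± 0.09 with its probes, and Fgf4 was not tested. Bmp3 fell for the mean response, where Fgf5 gave -0.12 ± 0.06 (adjusted p = 0.219).

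Of the FGF receptors, Fgfr3, which restrains growth of cartilage, was lower in null than in wildtype controls. It read 1.35, 0.987, 1.39 and 1.496 in wildtype controls, 1.36, 1.82, 1.26 and 1.06 in heterozygous controls and 0.945, 0.619, 0.822 and 0.389 in null controls. After heat it read 0.663, 0.738, 0.909 and 1.02 in wildtype, 1.32, 1.18, 1.39 and 1.04 in heterozygous and 1.29, 1.15 and 0.569 in null pools. Each null control lay below each wildtype control, and after heat the null pools overlapped both other genotypes. The difference between controls was -0.97 ± 0.26 (limma adjusted p = 0.0261), or 0.51 of the wildtype level. The probe is dim here: it exceeded the 40th percentile on 4 of the 12 control arrays and on none of the null controls, and its value in null control D was raised to the array's floor, so the size of the fold is uncertain. The heat response was -0.65 ± 0.26 in wildtype and 0.52 ± 0.28 in null pools (adjusted p = 0.177 and 0.234). The difference between these responses was 1.17 ± 0.38, with a 95% interval from 0.39 to 1.96 before any adjustment, and did not pass over all probes (adjusted p = 0.114). The call between controls was lost without wildtype control A, C or D or null control B or D (adjusted p from 0.0602 to 0.103; -0.72 without null control D), and reached only the threshold with median centring of the arrays in place of quantile normalization (-0.84, adjusted p = 0.05).

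Fgfr1, the main FGF receptor of mesoderm, read 9.80, 7.49, 7.11 and 8.42 in wildtype controls, 9.33, 9.22, 5.22 and 6.65 in heterozygous controls and 7.54, 6.39, 5.94 and 3.85 in null controls. The heterozygous controls fall apart into a high pair, A and B, and a low pair, C and D. The null minus wildtype difference of -0.50 ± 0.21 did not pass (adjusted p = 0.132), nor did the heat response in null pools, 0.36 ± 0.22 (adjusted p = 0.314).

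A like division of the heterozygous controls is seen in some other members. How often it occurs among the members or over all probes was not counted. Over all probes, the first principal component of the arrays' deviations from their group means holds 31.6% of that variance, and each array's score on it was set beside the members' levels. Heterozygous controls A and B scored 23.03 and 28.7, and C and D scored -29.2 and -22.8. Wildtype controls scored from 5.79 to 22.7 and null controls from -39.6 to -12.3, so these 2 groups do not overlap on it. In heterozygous controls A and B against C and D, Fgf18 read 6.71 and 4.83 against 3.55 and 3.24. Bmp1 ran the other way, with 5.29 and 4.53 against 7.03 and 6.504, and its wildtype controls, 4.35 to 5.09, also lay below its null controls, 6.05 to 6.71. Bmp4 followed with 10.1 and 10.3 against 8.86 and 9.02. With the score as a covariate, 0 of 30 members passed between null and wildtype controls, as did only 0.0682% of all probes, so the loss of calls is shared by nearly the whole table. Bmp4 gave -0.33 (adjusted p = 0.427), Fgfr3 -0.50 (adjusted p = 0.583) and Fgf5 0.20 (adjusted p = 0.619). The heat response of Bmp4 in null pools passed with the covariate too, whereas the responses of Bmp2 probe 106001 (0.42, adjusted p = 0.051) and Fgf5 (-0.29, adjusted p = 0.151) in null pools, and of Fgf13 for the mean (-0.32, adjusted p = 0.0513), did not. Since the score separates wildtype from null controls, genotype and whatever else the score follows cannot be told apart in that comparison.

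**Figure D3:**
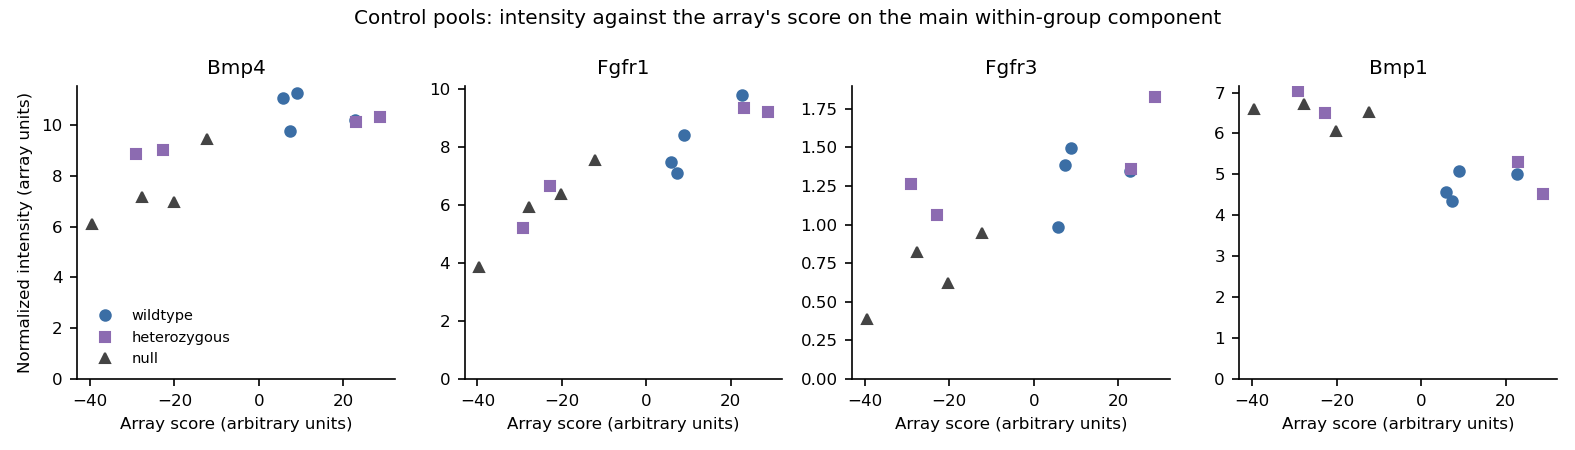
Normalized intensity (vertical axis, array units, from 0) of Bmp4, Fgfr1, Fgfr3 and Bmp1 in the 12 control pools against the array's score on the first within-group component (horizontal axis, arbitrary units); circles are wildtype, squares heterozygous and triangles null pools. The heterozygous pools split into scores of 23.03 and 28.7 and of -29.2 and -22.8, and the wildtype (5.79 to 22.7) and null (-39.6 to -12.3) pools lie on opposite sides of 0.

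The 3 genes with 2 tested probes allow a comparison within a gene, made on the log2 difference between its probes on each array. The same fit was run on 2056 such pairs from 1660 genes. With heat, 1.65%, 2.29% and 4.13% of all pairs passed limma's test in wildtype, heterozygous and null pools, and 8.71% for the mean response, but 0 of the 3 member pairs did. Between genotypes the shares were 10.2%, 0% and 0.146% for null against wildtype, heterozygous against wildtype and null against heterozygous controls, and 1.26%, 0.0973% and 0% in the heat bath. For the response differences they were 0.243% (null minus wildtype), 0% (heterozygous minus wildtype) and 0.0973% (null minus heterozygous), and 0 of the 3 member pairs passed in these either. The Bmp2 probes differed in their null heat response by 0.51 ± 0.18 (unadjusted p = 0.0104, limma adjusted p = 0.115) and in the mean response by 0.24 ± 0.10 (adjusted p = 0.156). Thus a call for probe 106001 and none for probe 182071 is not a shown difference between them. The Bmp7 probes differed in null pools by 0.31 ± 0.12 (limma adjusted p = 0.131), with 0.14 ± 0.10 for probe 30025 and -0.18 ± 0.11 for probe 290073. The Fgf3 probes, 5105 and 195002, gave -0.36 ± 0.22 and -0.26 ± 0.17 in null pools, a difference of -0.10 ± 0.30 (adjusted p = 0.872).

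**Figure D4:**
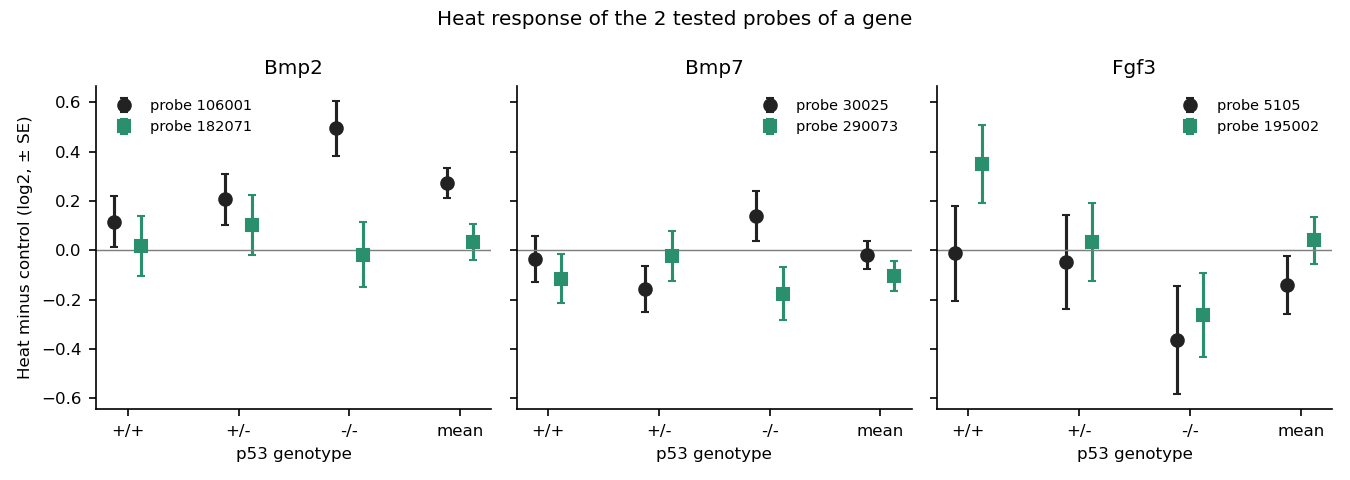
Heat minus control (vertical axis, log2, with the standard error) for the 2 tested probes of Bmp2, Bmp7 and Fgf3 in each p53 genotype and for the mean of the 3 (horizontal axis). For Bmp2 the probes lie furthest apart in null pools, at 0.50 and -0.02, and no pair differs past the threshold.

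Around the ligands and receptors, 24 of 27 other FGF pathway genes and 25 of 32 other BMP pathway genes were tested, with 1 probe a gene. With heat in wildtype pools 0 FGF genes passed, and of the BMP genes follistatin (Fst), which binds and blocks activin and BMPs, rose by 0.63 ± 0.16 (limma adjusted p = 0.0284) and Smurf2, a ubiquitin ligase for SMADs and receptors, fell by 0.50 ± 0.11 (limma adjusted p = 0.0152). Over all 12651 genes 3.6% passed in that comparison. In heterozygous pools 0 genes of both lists passed, against 3.08% of all genes. In null pools Il17rd, a membrane inhibitor of FGF signalling, rose by 0.88 ± 0.24 (limma adjusted p = 0.0392), and 0 BMP genes passed, against 6.34% of all genes.

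For the mean heat response 2 of 24 FGF genes and 4 of 25 BMP genes passed, against 15% of all genes. Il17rd rose by 0.40 and the feedback inhibitor Spred1 fell by 0.30. Fst rose by 0.41, and Smurf2 fell by 0.32, the type I receptor Acvr1 by 0.28 and the antagonist Sostdc1 by 0.56. The median change was -0.01 for the FGF list and -0.06 for the BMP list, beside -0.01 for all genes. In these pathway lists genes that restrain signalling are found among both those that rose and those that fell.

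Between null and wildtype controls 4 genes of each list passed, against 8.5% of all genes. The FGF target Etv5 was lower by -1.23 ± 0.30 (limma adjusted p = 0.0206) and Il17rd by -0.74 ± 0.23, while Spred3 (0.58 ± 0.14) and Etv1 (0.43 ± 0.11) were higher. Of the BMP list, Smad4, the SMAD partner shared by all BMP signals, was lower by -1.29 ± 0.31 (limma adjusted p = 0.0195) and the target Id2 by -0.36 ± 0.11. Msx1, another BMP target, was higher by 0.47 ± 0.11, as was the BMP co-receptor Rgma by 0.78 ± 0.19. In both lists 2 genes were higher and 2 lower, so the calls do not run in 1 direction. Il17rd and Bmp4 were both lower in null controls and both rose with heat in null pools, 2 comparisons that share the null controls.

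The other 20 probes could not be tested. In 18 of them a group held fewer than 3 values, and the Fgf1 probe and an Fgf12 probe were dim. Of 7 genes with 2 probes only 1 of the pair was tested, and 12 genes, among them Fgf2, Fgf4, Fgf7, Fgf20 and Fgfr4, had no tested probe. On the heat arrays, 19 of the 20 probes stayed between 0.0921 and 0.902, and 18 never exceeded the 40th percentile of an array. A probe each of Bmp15, Bmp5, Fgf12, Fgf21 and Fgf4 had no control value.

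Fgf21, a hormone of liver and fat that responds to fasting and stress, is the exception. Its probe was empty on all 12 control arrays and read 28.8 in heterozygous heat C, against 0.156 to 0.363 in the other 10 heat pools, a ratio of 79.5 to the next pool. The deposited value there is 28.39. The same array has 13 probes that are at least 10-fold above every other heat array, out of 35839 probes with all heat values, where the other heat arrays have 0 to 3. With 1 high pool of 4 and no control value, no change with heat or genotype can be stated for Fgf21.

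**Figure D5:**
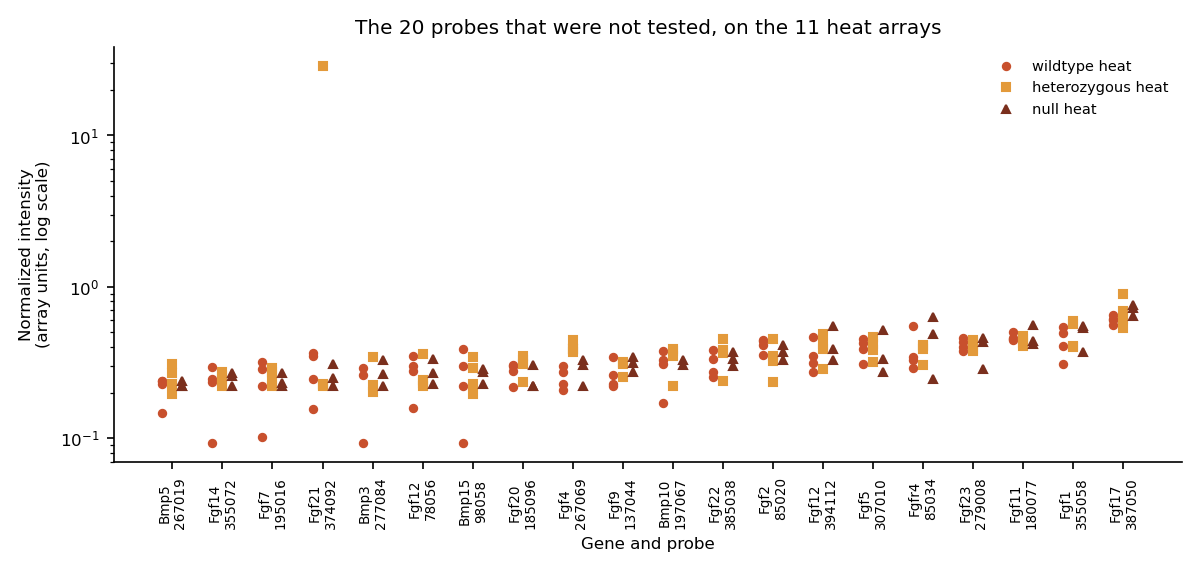
Normalized intensity (vertical axis, array units, log scale) of the 20 untested probes (horizontal axis, ordered by median) on the 11 heat arrays; circles are wildtype, squares heterozygous and triangles null pools. All values lie between 0.0921 and 0.902 except Fgf21 at 28.8 in a heterozygous heat pool.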

How the data were processed

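RNA of pooled embryos was labelled with biotin and detected with Alexa-647 streptavidin on CodeLink arrays, per the labels. The deposited values are linear intensities. The sources used here do not say how the authors scanned, background-corrected, normalized and filtered the spots. Empty and coded cells counted as missing, each array was floored at the 5th percentile of its positive values, and log2 was taken. Quantile normalization was learned on the 18702 probes measured on all 23 arrays and applied to the others by interpolation. limma 3.58.1 (lmFit, eBayes with trend, R 4.3.3) was fitted over 21979 probes with 6 group means, and gave 13 comparisons. Adjusted p-values are two-sided, with Benjamini-Hochberg over all tested probes or, within genes, all pairs. Intervals use a 95% confidence level. A gene of a pathway or marker list is represented by its brightest tested probe. The procedure was tested on simulated data. The number of arrays limits the precision.

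Values in every pool are given for each probe past the threshold in at least 1 comparison and for Bmp2's other probe. Control values of Fgfr1, Fgf18 and Bmp1, which gave no call, are also given to show the division of the heterozygous controls. Other members are given by range, by their change or by both. Of the pathway lists, up to 4 genes of smallest p per comparison are named by rule; each list had at most that many. The members and all gene lists were chosen with earlier results of these data known. Symbols follow the platform's annotation, and all 50 gene IDs gave the same current symbol in RefSeq (GRCm38.p6). Pool letters were not used as pairs: of 55 same-letter pairs between groups, 27 had correlated deviations over 0.1 (range -0.35 to 0.669). Alternatives changed the normalization, floor, filter, arrays and model.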

Additional observations from a re-analysis of the deposited data

Results flagged for a closer look

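In 185 groups of 4 pools, 4 held a pool far from the others by Dixon's criterion, which chance alone meets in about 1 in 20 groups. The first is Fgf21 in heterozygous heat C, at 28.8 against 0.222 to 0.228 in the other pools of the group. The others were low: Bmp15 probe 227078 in null control C, at 0.456 against 0.675 to 0.726, Bmp5 in wildtype heat A, at 0.146 against 0.228 to 0.238, and Fgf9 probe 137044 in heterozygous heat C, at 0.253 against 0.308 to 0.316. Of these only the Bmp15 probe was tested for differences between groups, and it gave no call.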

How the results depend on the processing

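Of the 11 calls of single probes, those of Bmp4 with heat in null pools and for the mean response held under all 18 and 33 alternatives. The highest limma adjusted p was 0.0485 and 0.0118. The changes ranged from 0.54 to 0.81 and from 0.28 to 0.41, leaving out limma's normalizeQuantiles over all values. That setting called most probes of the table, so a call that holds under it carries no weight. Counts of members called moved as follows. Arrays centred on the median gave 1 between null and wildtype controls (6.83% of all probes). The values as deposited gave 1 for heat in wildtype pools (8.96% of all probes) and 1 for the null minus wildtype response (2.96%). They also gave 2 for heat in null pools (2.79%), 4 for the mean (13.7%) and 2 between null and wildtype controls (5.93%). limma's normalizeQuantiles over all values, which ignores that empty cells are not random, called 29, 29, 30 and 30 for heat in wildtype, heterozygous, null and mean, beside 87.6%, 87.5%, 91.7% and 96.2% of all probes, and turned Fgf5 in null pools to 0.70 and Fgf13 and Bmp3 in the mean to 0.58 and 0.80. Only the groups compared gave 1 for heat in wildtype pools (3.13% of all probes) and 7 between null and wildtype controls (21.1% of all probes). Array weights gave 9 there (27.7% of all probes). The covariate score gave 1, 1 and 1 for heat in wildtype, heterozygous and null pools, beside 7.21%, 5.14% and 2.71% of all probes. It gave 0 between null and wildtype controls, with the share of all probes given above. With the pool letter as a replicate block 1 member was called between null and wildtype heat pools (2.34% of all probes). Fgf5 lost both calls in that setting (-0.37, adjusted p = 0.0619, and 0.32, adjusted p = 0.0519). Leaving out a pool gave 1 to 5 for heat in null pools (1 without null control B or null heat B, 5 without null heat C) and 3 to 6 for the mean (3 without heterozygous control C or D, heterozygous heat A or null heat A). Between null and wildtype controls it gave 0 to 3 (0 without wildtype control D or null control B or D, 1 without wildtype control A or C or null control C). It gave 0 to 1 for null against heterozygous controls (1 without heterozygous control C), null against wildtype heat pools (1 without null heat A) and the null minus wildtype response (1 without null heat C). The shares of all probes called are not given here for the runs that left out pools or kept complete probes only. The cause of these shifts in counts was not tested. Without the 4 arrays of lowest top value, an alternative chosen after seeing the data as was the use of complete probes only, 2, 4 and 2 members were called for heat in null pools, the mean and null against wildtype controls; complete probes gave 3, 5 and 3. Of the 20 untested probes, 19 were dim on the brightness rule; Fgf17 met it and lacked values in a group.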
